A study of Rattus norvegicus with 23 samples.

Results

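Transcripts of 10 genes used as astrocyte markers or known for lipid activation in glia were followed through the rat area postrema. The genes were Acsbg1, Aldoc, Gfap, Slc1a2, Slc1a3, Gja1, Glul, S100b, Aldh1l1 and Fgfr3. They were chosen by name, with earlier results of these data known. Every probe set was taken that carries one of these symbols as its only symbol in the platform annotation. This gave 18 of the 31099 probe sets of the Affymetrix Rat Genome 230 2.0 array, and 10 of the 14218 genes that have a probe set of a single symbol. The area postrema is a small organ on the floor of the hindbrain that lacks a tight blood-brain barrier. The series holds 23 arrays of it, each from the pooled RNA of 5 male rats. SHR, an inbred strain with high blood pressure, and WKY, the related strain with normal blood pressure, gave 5 arrays each from animals aged 10 to 13 weeks, and neither strain received a treatment in the labels. Sprague Dawley rats aged 10 to 12 weeks made up 4 control arrays without treatment, 5 arrays of animals fasted for 48 h and 4 of animals dehydrated for 72 h.

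Astrocytes take up glutamate through the transporters encoded by Slc1a2 and Slc1a3 and turn it into glutamine with glutamine synthetase, the product of Glul. They are joined to each other by gap junctions of the connexin encoded by Gja1, and they hold the intermediate filament protein Gfap, which is known to increase in reactive astrocytes. Acsbg1 belongs to the bubblegum family of acyl-CoA synthetases, which attach coenzyme A to long and very long chain fatty acids. Much of the further use of a fatty acid in the cell needs this step.

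Values are scaled array signals, in arbitrary units that are comparable for 1 probe set across arrays and not between probe sets. Array medians ran from 39.8 to 44.5. The Gapdh control probe sets at the 3′ and the 5′ end of the transcript, whose log2 ratio reads how complete the amplified RNA was, gave values from 0.03 to 0.68, highest in control 2 (0.57) and dehydrated 2 (0.68). The summed signal of 6 choroid plexus genes ran from 128 to 319 in the SHR and WKY arrays and from 252 to 8233 in the Sprague Dawley arrays. Ttr, the brightest of them on average, ran from 44.2 to 7953 over the 23 arrays. SHR and WKY carry another label entry than the Sprague Dawley arrays, so strain and labelling cannot be told apart between these sets, and no test was made across them. In pooled tissue, fewer cells of a type and less RNA per cell cannot be told apart. Each array is a pool, and nothing shows that the pools of a group were dissected on separate occasions, so a p-value here reads only the scatter among the arrays, which may be technical.

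Of the 10 genes, 9 had a probe set bright enough to be tested, which here means a mean at or above the 40th percentile of all probe sets, and Slc1a2 had none. Its probe sets 1369693_a_at and 1369694_at had signals from 4.5 to 34.1 over all 23 arrays, with means at the 30.7th and 28.6th percentile. Slc1a2 encodes the glutamate transporter that is the main one of most forebrain astrocytes, and the array gave no usable value for it in this tissue in any group. Slc1a3, the other glial glutamate transporter, was read by 3 probe sets that all passed, and 1368565_at had signals from 3048 to 5833. S100b, a small calcium-binding protein, had signals from 3856 to 6331, and Aldoc, the brain form of the glycolytic enzyme aldolase, from 2493 to 4327. Aldh1l1, a folate enzyme much used as an astrocyte marker, ran from 110 to 175, and Fgfr3, a receptor for fibroblast growth factors, from 68.1 to 202. Signals of Gfap ran from 456 to 1752, of Gja1 from 1125 to 2634, of Glul from 581 to 806 and of Acsbg1 from 532 to 936. The 9 genes that could be read thus had signal on every array, and Slc1a2 could not be judged. Not tested either were Gja1 1369639_at and Fgfr3 1369373_at, and, for SHR against WKY, Gja1 1369640_at, so that 13 of the 18 probe sets entered that comparison and 14 the others.

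Acsbg1, on chromosome 8 and read by the single probe set 1367923_at, was the member that differed between groups. Its promoter is shown as 300 bases from RefSeq on the build GRCr8, from 250 bases before to 50 after the start of the gene, at chr8:63943229-63943528 on the minus strand. The capitals mark matches to 6 short motifs, which were searched on both strands and which appear as their reverse complement where the match lies on the other strand.
Acsbg1: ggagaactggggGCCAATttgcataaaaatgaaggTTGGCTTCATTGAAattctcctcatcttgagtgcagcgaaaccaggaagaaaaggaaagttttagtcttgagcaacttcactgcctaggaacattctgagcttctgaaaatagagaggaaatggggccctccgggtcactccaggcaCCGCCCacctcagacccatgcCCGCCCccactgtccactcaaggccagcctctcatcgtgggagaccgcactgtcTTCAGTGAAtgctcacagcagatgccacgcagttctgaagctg
The motifs were the TATA box (TATAAA, held by 14.2% of the 33469 promoters of the same length in the table), the CCAAT box (CCAAT, 37.5%), the GC box (GGGCGG, 33.1%), the AP-1 site (TGANTCA, 7.33%), the STAT site (TTCNNNGAA, 8.87%) and the NFI half-site (TTGGC, 45.8%). The Acsbg1 promoter held 2 STAT sites, at bases -210 and 8 from the start, 2 GC boxes at -68 and -47, 1 CCAAT box and 2 NFI half-sites. The first NFI half-site shares bases with the CCAAT box, and the second lies directly before the upstream STAT site. A match of this kind is a description of letters and not a binding site, and no binding was measured in these samples.

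In the untreated Sprague Dawley controls Acsbg1 signals were close together, at 893, 907, 908 and 936 on the 4 arrays. After dehydration they were 554, 612, 615 and 611. The lowest control array was thus well above the highest dehydrated array, and the groups did not overlap. Mean signals were 598 ± 29.5 (SD, n = 4) after dehydration and 911 ± 18.3 (SD, n = 4) in controls, a log2 difference of -0.60 (SE 0.085), or 1.51-fold lower (limma, adjusted p = 0.00515). By p-value this was rank 2 of the 18625 probe sets tested. Dehydration called 0.166% of all probe sets at an adjusted p below 0.05 (31 probe sets), and 6.68% of all probe sets had groups that did not overlap.

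Fasted arrays had Acsbg1 signals of 748, 810, 622, 584 and 655. All 5 lay below the 4 controls, and their spread was wider than that of the other Sprague Dawley groups. The mean was 684 ± 92.8 (SD, n = 5), and the log2 difference from control was -0.42 (SE 0.081), with an adjusted p of 0.105 by limma and an unadjusted p of 4.52e-05, rank 8 of 18625. It did not pass. Without fasted 2, the highest fasted array, the difference was -0.48 and passed with a limma adjusted p of 0.0206. As in the main fit, the difference did not pass with a covariate. It was -0.42 with the mean of the other 8 tested members (limma, adjusted p = 0.102) and -0.32 with the fibroblast and meningeal mean (0.999). It was -0.37 with the microglia mean (0.577) and -0.33 with the neuron mean (0.539). Fasting called 0.0215% of all probe sets, which is 4 probe sets, and 2.32% had groups that did not overlap. Between dehydrated and fasted arrays, where the ranges overlap, the log2 difference was -0.18 with a 95% interval from -0.35 to -0.01 (limma, adjusted p = 0.461). In that comparison 0.0322% of all probe sets passed and 3.23% had groups that did not overlap. Fasting and dehydration were set against the same 4 control arrays, so their values are not independent of each other.

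Acsbg1 was also lower in SHR than in WKY. The SHR arrays had signals of 603, 683, 561, 532 and 585, and the WKY arrays 925, 904, 772, 726 and 764. The highest SHR array was below the lowest WKY array. The means were 593 ± 56.8 and 818 ± 90.0 (SD, n = 5 each), a log2 difference of -0.45 (SE 0.077), 1.37-fold lower (limma, adjusted p = 0.00135). Far more probe sets passed the adjusted p threshold between the strains than under either treatment, 5.06% of all probe sets (942), and Acsbg1 was rank 263. Groups that did not overlap were found for 6.33% of all probe sets, beside 6.68% under dehydration and 2.32% under fasting. These shares also depend on the number of arrays in a group. Ordered by mean signal the 5 groups ran from SHR and dehydrated, whose means differ by less than the SD of either group, through fasted and WKY to control. Neighbours in this order from different sets of arrays were not tested against each other.

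**Figure D1:**
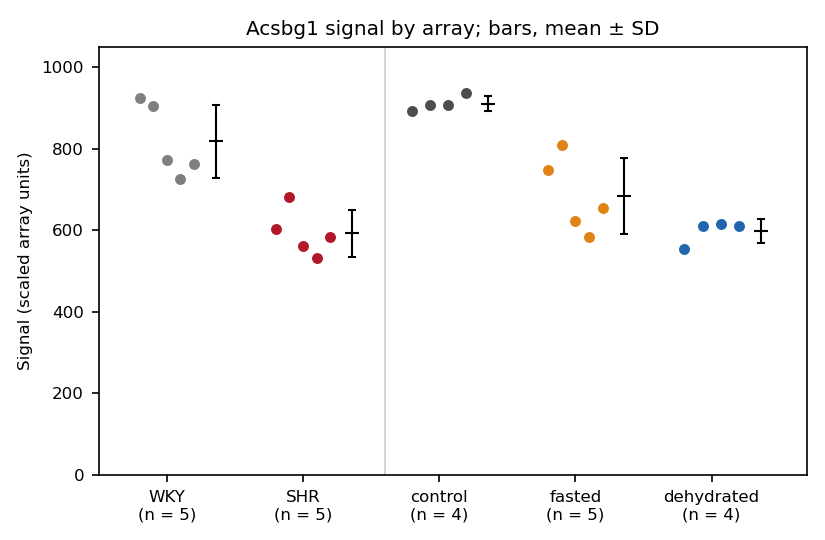
Signal of Acsbg1 on each of the 23 arrays (vertical axis, scaled array units from 0) by group, with the mean ± SD beside the points. The 4 dehydrated arrays (554 to 615) lie below the 4 controls (893 to 936), the 5 fasted arrays lie between 584 and 810, and the 5 SHR arrays (532 to 683) lie below the 5 WKY arrays (726 to 925). The grey line separates the sets that were fitted apart.

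Markers of other cells moved with the strain difference of Acsbg1. The summed signal of 12 microglia and macrophage genes was 2918 to 3524 in SHR and 3758 to 4102 in WKY, and that of 9 fibroblast and meningeal genes 2366 to 3065 in SHR and 3360 to 4157 in WKY. Neither sum overlapped between the strains. A bright gene weighs most in such a sum, and Col1a2, the brightest of the fibroblast list, had means of 1228 in SHR and 1949 in WKY. With the mean of the microglia list as a covariate the SHR against WKY difference of Acsbg1 was -0.29 (limma, adjusted p = 0.380), and with that of the fibroblast list it was -0.29 (limma, adjusted p = 0.630), so the call was lost in both fits. With the mean of the other 8 tested members as a covariate it was -0.47 (limma, adjusted p = 0.00117), and with the neuron list -0.46 (limma, adjusted p = 0.00572). Both sums separate the strains, so a fit with either list cannot part the strain from the list. A call lost or kept in these fits therefore says nothing on the cell makeup. The part of the cell makeup in the strain difference was not tested.

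For dehydration, the summed fibroblast and meningeal signal was 3537 to 4594 against 4107 to 5171 in controls, with overlap, and the microglia sum was 2564 to 3125 against 2552 to 2891. The Acsbg1 difference was -0.49 (limma, adjusted p = 0.433) with the fibroblast mean as a covariate and -0.56 (limma, adjusted p = 0.0796) with the microglia mean, so neither passed. The main fit gave -0.60, so with the microglia mean the value changed little although the call was lost. The Acsbg1 difference was -0.59 (limma, adjusted p = 0.00330) with the mean of the other 8 members and -0.51 (limma, adjusted p = 0.0187) with the neuron mean. The part of the cell makeup in this difference was not tested. With the Gapdh 3′ to 5′ ratio as a covariate the difference was -0.60 (limma, adjusted p = 0.00887). Without control 2 and dehydrated 2, the arrays with the highest ratio, it was -0.61 and passed narrowly (limma, adjusted p = 0.0494). Control 1 and 2 have a shorter label protocol text than the other Sprague Dawley arrays, and against controls 3 and 4 alone the difference was -0.61 with an adjusted p of 0.115 by limma. In every one of these fits the value stayed negative.

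The other 8 tested members gave no call. Of the 13 member probe sets tested for SHR against WKY, 1 was lower (Acsbg1) and 12 did not pass, with a median log2 difference of -0.05 over the 13 and 0.01 over all probe sets. Of 14 tested under dehydration, 1 was lower and 13 did not pass (median -0.02, all probe sets -0.01), and 3 had an unadjusted p below 0.05, as did 11.7% of all probe sets. Under fasting 0 of 14 passed by limma, 2 had an unadjusted p below 0.05 (7.19% of all probe sets), and the median was -0.01. Between dehydrated and fasted arrays 0 of 14 passed by limma, with 2 at an unadjusted p below 0.05 (10% of all probe sets). Read by 1 probe set a gene, the one with the highest mean, 5.15% of 10476 genes passed for SHR against WKY. The shares were 0.0288% of 10408 genes under fasting, 0.25% under dehydration and 0.0288% between dehydrated and fasted arrays. An unadjusted p below 0.05 was reached by 18.2% of genes for SHR against WKY, 7.7% under fasting and 12.2% under dehydration.

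**Figure D2:**
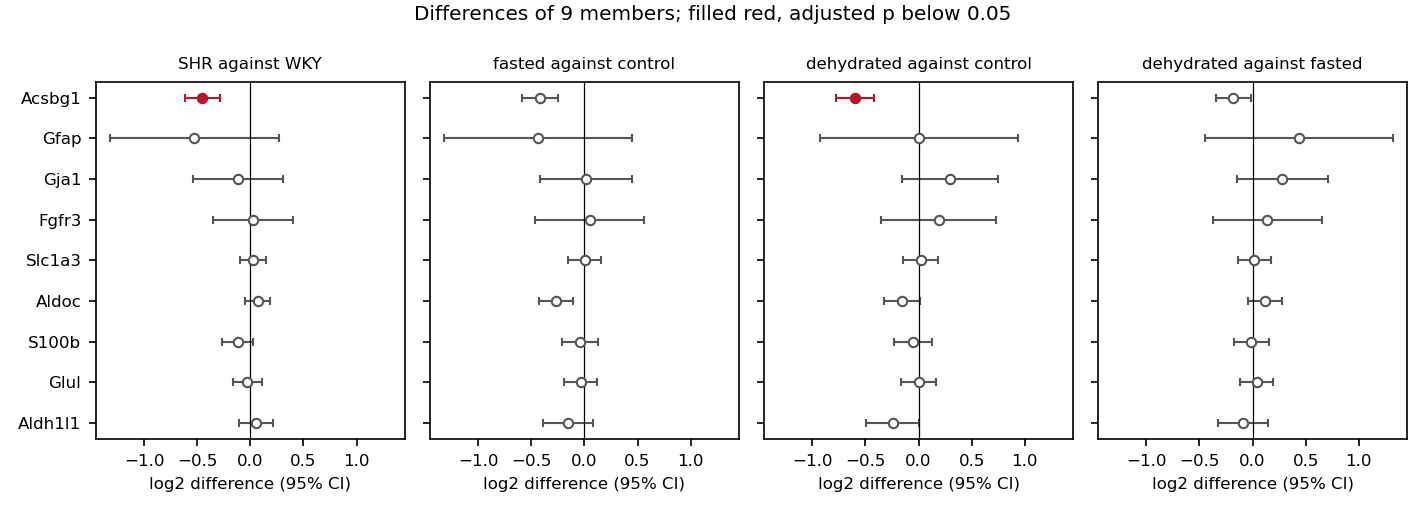
Log2 differences of the 9 tested members (horizontal axis, with 95% confidence intervals from limma) in the 4 comparisons, each gene by its brightest probe set. Filled red points mark an adjusted p below 0.05, which Acsbg1 alone has (-0.45 in SHR against WKY and -0.60 under dehydration). The intervals of Gfap are the widest of those plotted, from -1.32 to 0.27 in SHR against WKY.

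Aldoc came closest among the other members under fasting. Control arrays had signals of 3923, 4152, 4000 and 4327, and fasted arrays 4080, 3634, 3134, 2996 and 3258. Of the fasted arrays, 4 lay below every control and fasted 1 lay among them. The log2 difference was -0.27 (SE 0.077), with an unadjusted p of 0.00232 and a limma adjusted p of 0.431, so it did not pass. The dehydrated arrays, at 3622, 3618, 3986 and 3540, gave -0.15 (95% interval -0.32 to 0.02). Aldoc in SHR and WKY ran from 2493 to 2989.

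The genes of glutamate handling showed no call. Slc1a3 1368565_at differed by 0.02 between SHR and WKY (95% interval -0.10 to 0.15), by 0.00 under fasting (-0.15 to 0.16) and by 0.02 under dehydration (-0.14 to 0.19). These intervals lay within 0.19 of 0 on the log2 scale. The SHR and WKY arrays ran from 3048 to 3742 for this probe set and the Sprague Dawley arrays from 4559 to 5833, a gap that cannot be told apart from the different labelling entry. Of the other Slc1a3 probe sets, 1388064_a_at had a gap of the same direction (232 to 348 against 370 to 685), whereas 1371130_at overlapped (238 to 284 against 184 to 287). Glul 1367632_at differed by -0.03 between the strains and by -0.04 and 0.00 under fasting and dehydration. A second Glul probe set, 1386870_at, had signals of 264, 190, 218 and 241 after dehydration against 240, 264, 277 and 291 in controls, a log2 difference of -0.22 (limma, adjusted p = 0.368) that 1367632_at did not show (0.00). The groups overlap, and the third Glul probe set, 1367633_at, gave -0.04.

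S100b and Aldh1l1 were also without a call. S100b signals were 3856 to 4707 in SHR, 4047 to 5219 in WKY, 5034 to 5679 in controls, 4697 to 6331 after fasting and 4879 to 5894 after dehydration. S100b differed by -0.12 between SHR and WKY (95% interval -0.26 to 0.03), by -0.04 under fasting and by -0.05 under dehydration. Aldh1l1 had control signals of 126, 163, 136 and 175 and dehydrated signals of 116, 121, 111 and 147, which overlap. Its difference of -0.24 (95% interval -0.50 to 0.01) had a limma adjusted p of 0.439. The plot of the 8 other members by array shows these overlaps.

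**Figure D3:**
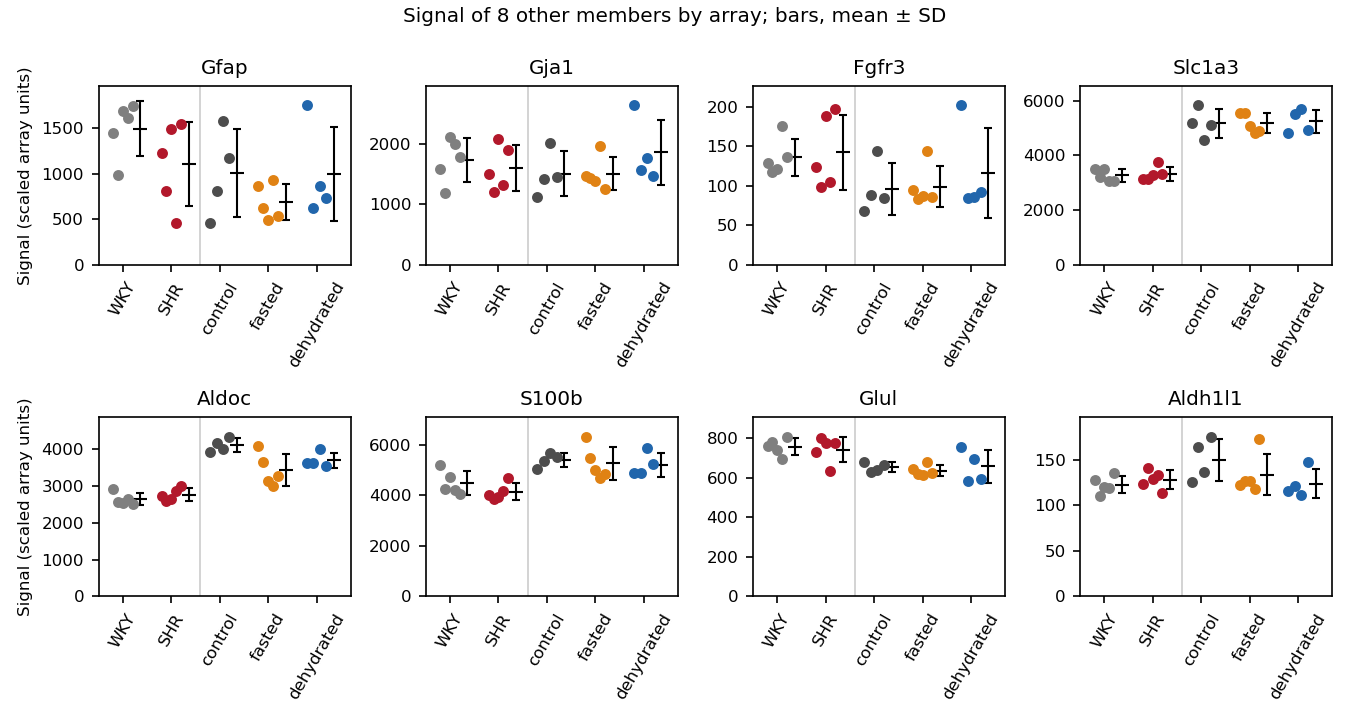
Signals of the 8 other tested members on each array (vertical axes, scaled array units from 0, brightest probe set of each gene), by group with mean ± SD. Gfap, Gja1 and Fgfr3 scatter widely within groups, whereas Slc1a3, Aldoc, S100b, Glul and Aldh1l1 hold together, and in each panel the compared groups overlap.

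Gfap, Gja1 and Fgfr3 varied from array to array within a group far more than the other members. Gfap signals were 1228, 812, 1486, 462 and 1542 in SHR and 1450, 986, 1686, 1612 and 1743 in WKY. They were 456, 809, 1582 and 1178 in controls, 865, 628, 496, 928 and 541 in fasted arrays and 1752, 624, 869 and 730 in dehydrated arrays. The groups of each comparison thus overlapped. The within-group SD of Gfap was 0.58 on the log2 scale, at the 99.8th percentile of 10418 genes, whose median was 0.15. Its differences were -0.53 (95% interval -1.32 to 0.27) for SHR against WKY, -0.44 (-1.32 to 0.45) under fasting and 0.00 (-0.93 to 0.93) under dehydration. Each interval includes 0 and reaches beyond the size of the Acsbg1 differences, so a difference of that size in Gfap was not detectable with these arrays.

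Gja1 1372002_at had signals of 1505, 1208, 2078, 1317 and 1899 in SHR and 1590, 1186, 2102, 1991 and 1786 in WKY. In Sprague Dawley rats they were 1125, 1409, 2013 and 1457 in controls, 1461, 1441, 1384, 1967 and 1254 after fasting and 2634, 1561, 1766 and 1459 after dehydration. The groups overlap, and dehydrated 1 is the highest array of all. The dehydrated difference was 0.29 (limma, adjusted p = 0.610), and another probe set, 1369640_at, gave 0.33 (limma, adjusted p = 0.370). Fgfr3 1384056_at had signals of 123, 98.3, 188, 104 and 197 in SHR and 129, 117, 121, 176 and 136 in WKY. It had 68.1, 88.9, 144 and 85.2 in controls, 94.5, 83.3, 87.0, 144 and 86.4 after fasting and 202, 84.5, 85.9 and 92.2 after dehydration. Here too dehydrated 1 is the highest, and its 3 fellow arrays lie within the range of the controls. The within-group SD was 0.32 for Gja1 (97.7th percentile) and 0.38 for Fgfr3 (98.7th percentile). For the 6 other tested members it ran from 0.11 to 0.16, between the 18.4th and the 56.4th percentile.

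These 3 genes moved together from array to array. Each array was read as its deviation from the mean of its group, and p-values came from permutations of the arrays within groups, adjusted over the 36 pairs of members. Over 23 arrays Gfap and Gja1 had a Pearson r of 0.86 (permutation p = 1e-05, adjusted p = 0.00036) and a Spearman rho of 0.91 (permutation p = 1e-05, adjusted p = 0.00036), and 1e-05 is the smallest p that 100000 permutations can give. Without the arrays farthest out in Gfap, SHR 4 and control 1, r was 0.88, and it was 0.79 in the SHR and WKY arrays and 0.91 in the Sprague Dawley arrays. Gfap and Fgfr3 had an r of 0.82 (permutation p = 5e-05, adjusted 6e-04) and a rho of 0.86 (permutation p = 3e-05, adjusted 0.00048), with 0.83 without the same 2 arrays, 0.75 in SHR and WKY and 0.86 in Sprague Dawley. Gja1 and Fgfr3 had an r of 0.87 (permutation p = 3e-05, adjusted 0.00054) and a rho of 0.84 (permutation p = 4e-05, adjusted 0.00048), with 0.82 without dehydrated 1 and control 3, 0.78 in SHR and WKY and 0.95 in Sprague Dawley. Genes read on 1 array share its dissection, its amplification and its scaling.

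Aldoc and S100b formed a second pair, with an r of 0.86 (permutation p = 0.00011, adjusted 0.00099) and a rho of 0.77 (permutation p = 0.00037, adjusted 0.00333). Without fasted 1 and WKY 1 the r was 0.77, and it was 0.85 in SHR and WKY and 0.88 in Sprague Dawley. Both genes were as close to genes outside the astrocyte lists. With Aldoc and with S100b, r was 0.88 and 0.92 for Cst3, 0.90 and 0.86 for Gnas and 0.86 and 0.87 for Rpl41. The pair was thus not particular to astrocyte genes. Aldoc and Slc1a3 had an r of 0.57 (permutation p = 0.00412, adjusted 0.0297), but the rho of 0.53 did not pass (permutation p = 0.0138, adjusted 0.0994). Without fasted 1 and WKY 1 this r was 0.52. Of the 36 pairs, 5 had an adjusted p of r below 0.05, all positive, and 4 also an adjusted p of rho. Gfap and S100b, which are both used as general astrocyte markers, had an r of 0.20 (permutation p = 0.344, adjusted 0.563). Acsbg1 was in none of the 5 pairs: its r was -0.13 with Gfap, -0.48 with Gja1 (permutation p = 0.0205, adjusted 0.103) and 0.49 with Aldoc (permutation p = 0.0845, adjusted 0.242). The r of Acsbg1 with Aldoc was 0.06 in the SHR and WKY arrays and 0.79 in the Sprague Dawley arrays.

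**Figure D4:**
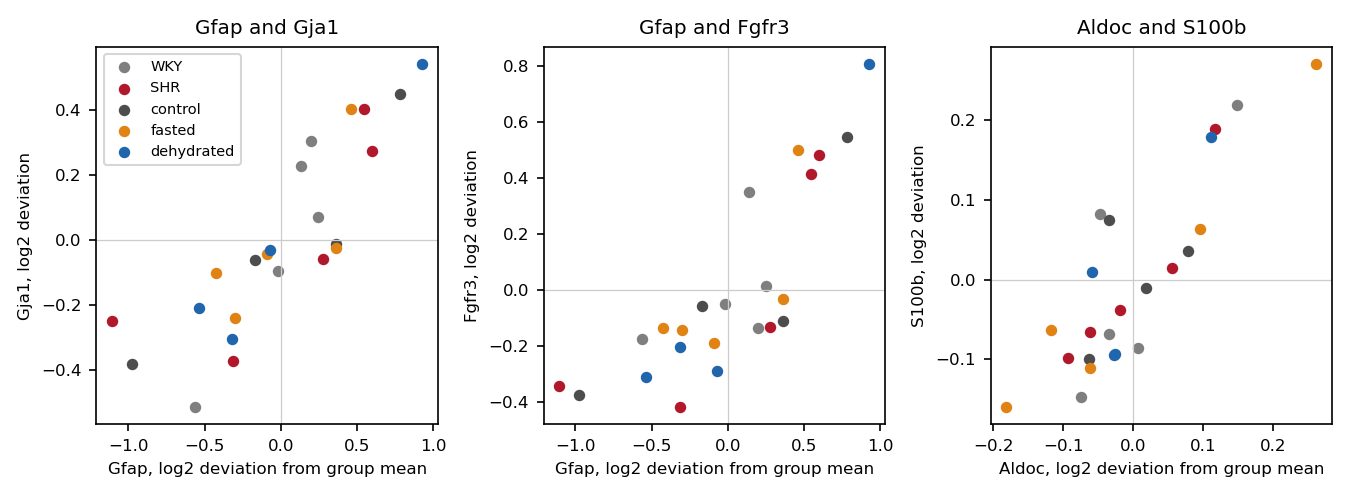
Deviations of each of the 23 arrays from its group mean, on the log2 scale, for Gfap against Gja1 (left), Gfap against Fgfr3 (middle) and Aldoc against S100b (right), coloured by group. Each panel rises from lower left to upper right with points of every group along it (r of 0.86, 0.82 and 0.86), and the Aldoc and S100b axes span a much narrower range than those of Gfap.

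The promoters of the 3 genes that moved together are shown for comparison with that of Acsbg1, with the same motifs in capitals. They lie on GRCr8 at chr10:88361612-88361911 on the minus strand (Gfap), chr20:36302314-36302613 on the plus strand (Gja1) and chr14:81227160-81227459 on the minus strand (Fgfr3), and are 300 bases each from RefSeq.
Gfap: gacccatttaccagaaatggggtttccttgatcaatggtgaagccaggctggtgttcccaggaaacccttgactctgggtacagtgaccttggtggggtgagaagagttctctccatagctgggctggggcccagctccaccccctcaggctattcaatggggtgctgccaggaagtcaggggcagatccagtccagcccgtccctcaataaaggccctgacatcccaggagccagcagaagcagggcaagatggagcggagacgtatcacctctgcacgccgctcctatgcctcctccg
Gja1: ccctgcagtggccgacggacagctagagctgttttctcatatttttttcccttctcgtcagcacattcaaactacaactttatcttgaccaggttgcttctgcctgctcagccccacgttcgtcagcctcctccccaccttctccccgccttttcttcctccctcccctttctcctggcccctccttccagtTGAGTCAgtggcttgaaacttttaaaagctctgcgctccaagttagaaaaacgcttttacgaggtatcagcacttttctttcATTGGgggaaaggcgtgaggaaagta
Fgfr3: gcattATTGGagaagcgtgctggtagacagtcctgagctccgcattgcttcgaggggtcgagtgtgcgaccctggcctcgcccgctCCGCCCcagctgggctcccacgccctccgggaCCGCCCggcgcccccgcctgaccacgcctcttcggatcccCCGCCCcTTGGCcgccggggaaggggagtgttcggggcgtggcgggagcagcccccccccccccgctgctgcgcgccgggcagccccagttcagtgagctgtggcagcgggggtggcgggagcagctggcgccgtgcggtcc
The Gfap window held none of the 6 motifs. Gja1 held 1 AP-1 site at base -58 and 1 CCAAT box after the start. Fgfr3 held 3 GC boxes, 1 CCAAT box and 1 NFI half-site, and was the richest in G and C, at 74.7% against 58.7% for Gfap, 52.3% for Acsbg1 and 50.3% for Gja1. No motif was found in all 3 windows, and a missing match says only that the letters are not in this window.

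Other genes known from astrocytes were read against the members in the same way. A list of 27 further astrocyte genes had 20 that could be read. With Gfap, 10 of these 20 had a within-group r above 0.5, against 5.76% of all genes, with a median r of 0.44. They included Ntsr2, a neurotensin receptor of astrocytes (0.94), Clu, the secreted chaperone clusterin (0.92), Fabp7, a fatty acid carrier of radial glia and astrocytes (0.90), Aqp4, the water channel of astrocyte endfeet (0.87), Bcan, a matrix proteoglycan (0.87), and Cldn10 (0.85). Slc4a4, a sodium bicarbonate cotransporter, ran the other way (-0.63). S100b followed Apoe, the lipid carrier of the brain (0.87), and had 5 of 20 above 0.5 (3.18% of all genes). Acsbg1 had 3 of 20 above 0.5 (5.03% of all genes), the protease Htra1 (0.65), the receptor Gpr37l1 (0.62) and Atp1b2, a sodium pump subunit (0.59), and its median r was -0.17. These correlations are over arrays that share dissections and scaling, and they are given as a description.

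**Figure D5:**
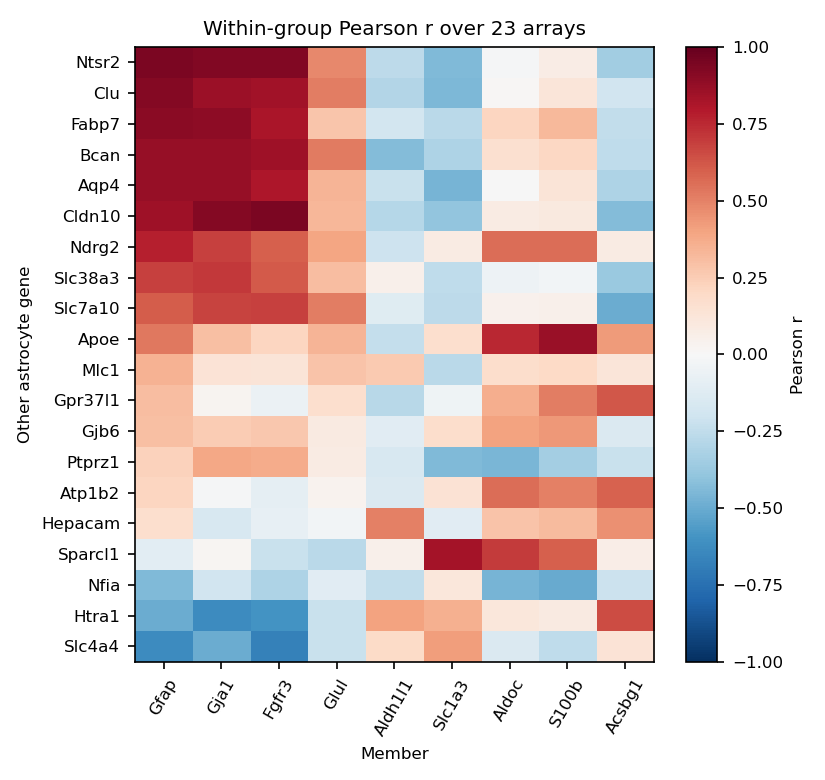
Within-group Pearson r over 23 arrays between each of the 9 tested members (columns) and 20 other astrocyte genes (rows), in colour from -1 (blue) to 1 (red). The columns of Gfap, Gja1 and Fgfr3 look alike, with values from 0.81 to 0.94 for Ntsr2, Clu, Fabp7, Bcan, Aqp4 and Cldn10, and the Acsbg1 column has its highest values at Htra1, Gpr37l1 and Atp1b2.

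Over all 10417 other genes, those most like Gfap were Rnase4 (0.94), Ntsr2 (0.94), Clu (0.92), Pitpnm3 (0.92) and Lxn (0.92). Those most like Acsbg1 were Lman2 (0.85), Immt (0.84), Ndufb11 (0.82), Aldh7a1 (0.81) and Plpp4 (0.80), by the same within-group r over 23 arrays. Of these, Immt and Ndufb11 encode mitochondrial inner membrane proteins and Lman2 a cargo receptor of the secretory pathway. Marker lists of other cells moved with Gfap as well: 6 of 8 oligodendrocyte genes and 3 of 6 ependymal and tanycyte genes had an r above 0.5 with it (5.76% of all genes). With Fgfr3, 5 of 6 ependymal and tanycyte genes were above 0.5 (6.31% of all genes) and 4 of 8 fibroblast and meningeal genes were below -0.5 (4.33% of all genes). The part of the dissection in these relations was not tested.

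Among the other enzymes that activate fatty acids, 2 of 15 tested acyl-CoA synthetase genes were lower in SHR than in WKY, where 2.84% of all genes were lower and 2.31% higher. They were Slc27a1, which also imports fatty acids (-0.23, limma adjusted p = 0.0171), and Acsl6, a long chain enzyme of brain (-0.39, limma adjusted p = 0.0192). The median over the 15 was -0.05, against 0.01 over all genes. Under dehydration 0 of 15 passed by limma, and 5 had an unadjusted p below 0.05 (12.2% of all genes). These were Slc27a3 (-0.57, adjusted p = 0.0952), Acsl4 (0.32, adjusted p = 0.116), Slc27a4 (-0.26), Acsl3 (0.29) and Acsl1 (0.25), of both signs. Under fasting 0 of 15 passed by limma, with 1 at an unadjusted p below 0.05 (7.7% of all genes).

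Of 30 tested genes of lipid handling, which include carriers, lipoprotein genes and regulators, 4 differed between SHR and WKY, beside 5.15% of all genes. Of these, 3 were higher in SHR: Angptl4, an inhibitor of lipoprotein lipase (0.79, limma adjusted p = 0.000177), Fabp3, a fatty acid carrier (0.43, adjusted p = 0.00171), and Acadl, an enzyme of mitochondrial beta oxidation (0.22, adjusted p = 0.0477). Scd, the desaturase that makes oleate, was lower (-0.52, limma adjusted p = 0.0308). Under dehydration 1 of 29 fell (0.25% of all genes passed), Acadvl, which starts beta oxidation of very long chains (-0.47, limma adjusted p = 0.0160). Its signal was 281 ± 12.6 after dehydration and 396 ± 29.6 in controls (SD, n = 4 each). Under fasting 0 of 29 passed by limma, with 5 at an unadjusted p below 0.05 (7.7% of all genes).

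Among the 20 other astrocyte genes tested, SHR was higher than WKY at Mlc1, a membrane protein of astrocyte endfeet (0.37, limma adjusted p = 0.00140), and Htra1 (0.39, adjusted p = 0.00806). It was lower at Nfia, a transcription factor of gliogenesis (-0.29, limma adjusted p = 0.0279), and Gpr37l1 (-0.23, adjusted p = 0.0442). Of all genes, 2.31% were higher in SHR and 2.84% lower. The other 16 did not pass, and under dehydration and fasting 0 of 20 passed by limma, with 4 and 1 at an unadjusted p below 0.05 (12.2% and 7.7% of all genes). Of 14 genes of reactive glia, 3 were lower in SHR, beside 2.84% of all genes. They were Cp, the copper protein ceruloplasmin (-0.62, limma adjusted p = 3.87e-06), Stat3 (-0.92) and Cd44, a hyaluronan receptor (-0.57). Of the 14, 7 had a negative and 7 a positive value, with a median of -0.002 against 0.01 over all genes. Under dehydration 1 of the 14 fell, the small heat shock protein Hspb1 (-0.54, limma adjusted p = 0.00821), where 0.25% of all genes passed. Gfap itself, the usual marker of reactive astrocytes, gave no call in either comparison.

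The partners of the remaining members gave 1 call. Of 11 tested FGF signalling genes, Fgfr2 was lower in SHR (-0.28, limma adjusted p = 0.0147) and 10 did not pass, where 2.84% of all genes were lower. By limma, 0 of 11 genes of the glutamate and glutamine cycle and 0 of 5 connexins passed for SHR against WKY, with 1 and 2 at an unadjusted p below 0.05 (18.2% of all genes). Under fasting and dehydration 0 of these 3 lists' genes passed by limma. At an unadjusted p below 0.05 there were 2 glutamate cycle genes under each treatment, 3 FGF signalling genes under dehydration and no connexin, beside 7.7% of all genes under fasting and 12.2% under dehydration. Neurons (0 of 10) and oligodendrocytes (0 of 8) gave no call for the strains by limma, with 2 and 0 at an unadjusted p below 0.05. In SHR, 4 of 10 microglia genes (C1qa, Ctss, Aif1 and C1qc) and 3 of 8 fibroblast and meningeal genes (Fmod, Col1a2 and Igf2) were lower, beside 2.84% of all genes. All tested genes of both lists had a negative value, as did 46.2% of all genes.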

How the data were processed

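The authors deposited 1 table of array intensity signals on a linear scale, made with GCOS 1.2 per the submitters' processing notes, with settings that no source used here gives. The mean of each array after trimming 2% at each end was 100.03, and the signals were used as deposited. Signals were read as log2(signal + 16), so fold changes understate ratios at low signal. Each fit kept 18625 of 31099 probe sets, after removal of 57 controls and of those whose mean log2 fell short of the 40th percentile. The 10 SHR and WKY arrays and the 13 Sprague Dawley arrays were fitted apart by limma 3.58.1, run in R 4.3.3 through lmFit and a trended, robust eBayes, with two-sided p-values adjusted by Benjamini-Hochberg over all probe sets kept, with a threshold of 0.05. Titles gave the groups, and every column belonged to a sample (0 did not). The first SHR and the first WKY title carry no number and are called replicate 1. Gene symbols came from the platform annotation, in which 20826 probe sets have 1 symbol, 436 several and 9780 none.

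The members, and 15 lists with 198 of 217 genes on the array, were chosen with earlier results of these data known. From each list the genes named are those whose brightest probe set passed, up to 6 per comparison. For Acsbg1 and Gfap the 5 genes with the highest within-group r are named. Genes named beyond this rule (the Aldoc, S100b, Slc4a4 and astrocyte gene correlations, and acyl-CoA synthetases that did not pass) were chosen after their values were seen. No 2 arrays were identical, and the highest correlation between arrays was 0.985. Permutations numbered 100000. The fits were tested on simulated data. Python 3.11.15 with numpy 2.4.6, pandas 2.3.3 and matplotlib 3.10.9 made the promoter search and the plots. Alternatives tried included quantile normalization, a pseudocount of 1 or 64, a filter at the 60th percentile or none, a plain eBayes, all arrays in 1 model, the 2 groups alone, the replicate number as a block, the Gapdh ratio as a covariate, controls 3 and 4 alone and each array left out. The cell list covariates and the fit without control 2 and dehydrated 2 were chosen after seeing the data. The number of arrays limits the precision.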

Additional observations from a re-analysis of the deposited data

Results flagged for a closer look

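Of 70 groups of arrays looked at (14 member probe sets in 5 groups), 6 held an array that stood apart from its fellows by Dixon's criterion, which flags about 1 group in 20 by chance. Acsbg1 in dehydrated 1 had a signal of 553.6, below the 610.8 to 614.9 of the other dehydrated arrays. Without dehydrated 1 the Acsbg1 difference from control was -0.56 (limma, adjusted p = 0.0198). Fgfr3 1384056_at in the same array was 202, against 84.5 to 92.2 in the others, and in fasted 4 it was 144.1 against 83.3 to 94.5. Aldh1l1 in fasted 5 was 173 against 118.3 to 126.6. Slc1a3 1371130_at in fasted 1 was 183.5 against 266.4 to 286.5, and Slc1a3 1388064_a_at in dehydrated 4 was 559 against 410.6 to 429.5. The brightest Slc1a3 probe set, 1368565_at, had no array that stood apart.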

How the results depend on the processing

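For SHR against WKY the count of member probe sets past the threshold was 1 under all 19 alternatives. Under dehydration it was 1 under all but 1 of 20 alternatives. With only control arrays 3 and 4 it was 0, in a fit with fewer samples. Under fasting it was 0, except 1 without fasted 2, and leaving out single arrays gave counts from 0 to 1. Leaving out single arrays gave 1 throughout for SHR against WKY and for dehydration and 0 throughout between dehydrated and fasted arrays. The Acsbg1 difference passed in 21 of 23 fits for SHR against WKY (-0.50 to -0.29) and in 21 of 24 for dehydration (-0.61 to -0.49), and the fits in which it did not pass are given with the results. Of the 53 differences that were not called, 1 passed under an alternative (Acsbg1, fasted), and 26 changed sign under at least 1.

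Over all probe sets, calls ran from 698 to 1073 for SHR against WKY (942), from 0 to 6 under fasting (4), from 2 to 74 under dehydration (31) and from 1 to 10 between dehydrated and fasted arrays (6). The cause was not tested. With the replicate number as a block the member counts were 1, 0, 1 and 0, and all calls 1073, 3, 15 and 1. The Acsbg1 difference was then -0.45 for SHR against WKY (limma, adjusted p = 0.000152), -0.40 under fasting (0.545) and -0.60 under dehydration (0.0243). Same-numbered arrays correlated from -0.01 to 0.27 in their deviations for SHR and WKY (differently numbered arrays -0.21 to 0.17), from -0.15 to 0.03 for fasting (-0.14 to 0.14) and from -0.16 to 0.05 for dehydration (-0.19 to 0.23). Not every same-numbered pair was above 0.1, so the numbers were not taken to pair the arrays, although for SHR and WKY their range lay higher. In replicates 1 to 5 the Acsbg1 deviations were 0.03, 0.20, -0.07, -0.15 and -0.01 in SHR. In WKY they were 0.18, 0.15, -0.08, -0.16 and -0.09. A pairing of SHR and WKY arrays is thus not excluded, and the permutations within groups took no account of one. Depth is not known for arrays, and dim probe sets such as those of Slc1a2 carry mostly background.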
